A study of Mus musculus with 7 samples.

Results

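The globin genes Hba-a1, Hba-a2, Hbb-bs and Hbb-bt and the erythroid enzyme gene Alas2 were followed through RNA-seq of 7 whole colon tumors. The 5 genes were taken from the deposited count table by their symbols and identifiers, and all 5 were found among its 43346 genes and were kept after the filter on low counts, with 15810 genes tested in all. The study asked how bone marrow (BM) lacking 1 copy of Dnmt3a alters colitis-associated colon tumors. Tumors came from wt C57BL6/J mice that received a transplant at 8 weeks according to the labels, and whose labels call the grafts Dnmt3a(+/-) BM (4 tumors) and Dnmt3a(+/+) BM (3 tumors); these are named Dnmt3a+/Δ-BM and Dnmt3a+/+-BM tumors here. The study's methods instead give a younger recipient age, describe the recipients as a congenic wt strain and name C57BL6/J for the donor lines. Every mouse, in both groups, then received 1 injection of azoxymethane (AOM, a colon carcinogen) at 10 mg/kg and 3 cycles of 3% dextran sodium sulfate (DSS, which inflames the colon) in the drinking water. By the study's methods, donor lines of both groups were bred with Mx1-Cre and donors of both were given poly(I:C), so that only the graft carries the deletion. Mx1-Cre is switched on by interferon and is not restricted to blood cells in the donor, recipients were lethally irradiated, and the sex and age of the mouse behind each tumor are not in the labels. The tumors came from 2 experiments. BMT18 gave Dnmt3a+/+-BM tumors 1 and 2 and Dnmt3a+/Δ-BM tumors 1 and 2, and BMT8 gave Dnmt3a+/+-BM tumor 3 and Dnmt3a+/Δ-BM tumors 3 and 4.

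Hemoglobin is built from alpha chains and beta chains, each holding a heme. In the adult mouse, Hba-a1 and Hba-a2 encode the alpha chains and Hbb-bs and Hbb-bt the beta chains, while the embryonic chains come from other genes of the same clusters. Alas2 encodes the erythroid 5-aminolevulinate synthase, the enzyme that starts heme synthesis in red cell precursors; other cells use Alas1. Mouse red cells in the circulation have no nucleus, but the youngest of them, the reticulocytes, still carry globin mRNA, so in a whole tumor these transcripts can come from blood in its vessels or from blood that has left them. Pecam1, which encodes the adhesion molecule CD31 of endothelial cells, was the measure of the vessel wall against which the erythroid transcripts were set.

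On genome build GRCm38 (mm10, GENCODE M21 annotation), the alpha genes lie on chromosome 11, Hba-a1 at chr11:32283511-32284465 and Hba-a2 at chr11:32296489-32297298, both on the plus strand. The beta genes lie on chromosome 7 on the minus strand, Hbb-bs at chr7:103826534-103828096 and Hbb-bt at chr7:103812524-103813996. Alas2 is X-linked, at chrX:150547375-150570638 on the plus strand. Each globin gene has 3 exons in its first listed transcript and Alas2 has 11. The coding sequences of Hba-a1 and Hba-a2 had 425 of 426 bases in common, and those of Hbb-bs and Hbb-bt 440 of 441. Of all 100-base windows of the transcript, 56.5% of Hba-a1 and 74.5% of Hba-a2 were also found in the other alpha transcript, and 62.6% of Hbb-bs and 54.8% of Hbb-bt in the other beta transcript, whereas no window was common to an alpha and a beta transcript. The division of reads within each pair was therefore an estimate of the counting program, and values of single members of a pair are uncertain to that extent, while the alpha and beta sums are not touched by it.

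The 250 bases before the RefSeq start of these genes (GRCm38.p6, given on the strand of the gene) are shown because the levels of the 5 genes varied together across tumors. Capitals mark the letters searched for on both strands: GATAA (the core bound by GATA factors), CACCC (bound by Krüppel-like factors), CCAAT and TATAA. GENCODE places the outermost start of each of the 5 genes inside its window, so part of a window can be transcribed. The windows lie at chr11:32283422-32283671, chr7:103827929-103828178, chr7:103813924-103814173 and chrX:150547167-150547416.
Hba-a1: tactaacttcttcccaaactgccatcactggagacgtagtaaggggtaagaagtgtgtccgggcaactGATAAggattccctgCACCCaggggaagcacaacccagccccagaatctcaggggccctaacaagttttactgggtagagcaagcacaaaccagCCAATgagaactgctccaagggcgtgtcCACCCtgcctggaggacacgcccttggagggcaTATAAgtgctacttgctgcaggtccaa
Hbb-bs: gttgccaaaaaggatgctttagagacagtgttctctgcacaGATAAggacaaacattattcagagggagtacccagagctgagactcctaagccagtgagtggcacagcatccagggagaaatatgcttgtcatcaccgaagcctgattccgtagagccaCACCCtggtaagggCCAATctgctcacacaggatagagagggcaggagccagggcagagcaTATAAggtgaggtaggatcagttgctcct
Hbb-bt: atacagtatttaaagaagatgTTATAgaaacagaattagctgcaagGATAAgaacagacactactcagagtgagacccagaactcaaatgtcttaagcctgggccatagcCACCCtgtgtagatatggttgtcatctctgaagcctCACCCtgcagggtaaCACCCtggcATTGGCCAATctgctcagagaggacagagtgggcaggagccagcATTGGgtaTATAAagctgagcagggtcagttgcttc
Alas2: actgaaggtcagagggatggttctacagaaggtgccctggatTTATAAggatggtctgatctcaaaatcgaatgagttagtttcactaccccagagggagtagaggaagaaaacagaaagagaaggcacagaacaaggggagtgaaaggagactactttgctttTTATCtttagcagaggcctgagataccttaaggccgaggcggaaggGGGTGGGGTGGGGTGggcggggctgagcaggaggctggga
The window of Hba-a2, at chr11:32296242-32296491, held the same motifs and had an unbroken run of 297 of 300 bases (250 before the start and 50 after it) in common with that of Hba-a1. All 5 genes had GATAA, also CACCC, and TATAA as well in this window, and CCAAT stood before the 4 globin genes but not in the Alas2 window. TATAA stood 27 bases before the start of Hba-a1, 30 before Hba-a2, 29 before Hbb-bs and 28 before Hbb-bt. In the Alas2 window it was 207 bases away, where the letters TTATAA hold it on both strands with 4 bases overlapping, and 3 CACCC matches on the opposite strand followed each other without a gap. In Hbb-bt a CCAAT on each strand stood end to end. Of 32851 RefSeq promoter windows of this length, 22.6% held GATAA, 52.0% CACCC, 33.8% CCAAT, 22.8% TATAA and 0.968% all 4. A match of letters is a description and does not show that a factor binds there.

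The tumors had 38472738 to 64314999 counts each. In the quasi-likelihood fit of edgeR, with p adjusted over all genes by Benjamini and Hochberg, 0 of 15810 genes (0%) passed an adjusted p of 0.05 with a log2 fold change beyond 1 between the graft groups, the lowest adjusted p being 0.361; before adjustment 1744 genes (11.0%) lay under 0.05, and 300 (1.90%) were called by DESeq2. Dnmt3a itself was at 24.3, 23.1 and 20.2 CPM (counts relative to the size of each library, scaled by TMM) in the 3 Dnmt3a+/+-BM tumors and at 27.7, 43.0, 28.3 and 22 CPM in the 4 Dnmt3a+/Δ-BM tumors (log2 fold change 0.43, SE 0.24, adjusted p = 0.542 by edgeR). Graft cells are a part of a whole tumor and the deletion leaves 1 allele, so this level does not check the labels. Colon epithelial markers were present in every tumor, with Krt8, a keratin of simple epithelia, between 3321 and 14679 CPM.

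Globin transcripts were far more abundant in 2 of the 4 Dnmt3a+/Δ-BM tumors, tumors 2 and 4, than in the other 5 tumors. The 4 adult globin genes together took 0.00203% of all counts in Dnmt3a+/Δ-BM tumor 1, 0.0217% in tumor 2, 0.00485% in tumor 3 and 0.0363% in tumor 4, against 0.00396, 0.00331 and 0.00260% in the 3 Dnmt3a+/+-BM tumors. The Dnmt3a+/Δ-BM group therefore held both the highest globin content and the lowest. The group means were 0.0162% ± 0.0160 (SD, n = 4) and 0.00329% ± 0.000679 (SD, n = 3). The exact (Clopper-Pearson) 95% interval of the share was 0.0357 to 0.0369% in Dnmt3a+/Δ-BM tumor 4 and 0.00189 to 0.00217% in tumor 1, so counting error is small beside the difference between tumors of 1 graft; such intervals cover counting error only. More blood in a tumor and more globin RNA per red cell cannot be told apart in whole-tumor RNA.

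**Figure D1:**
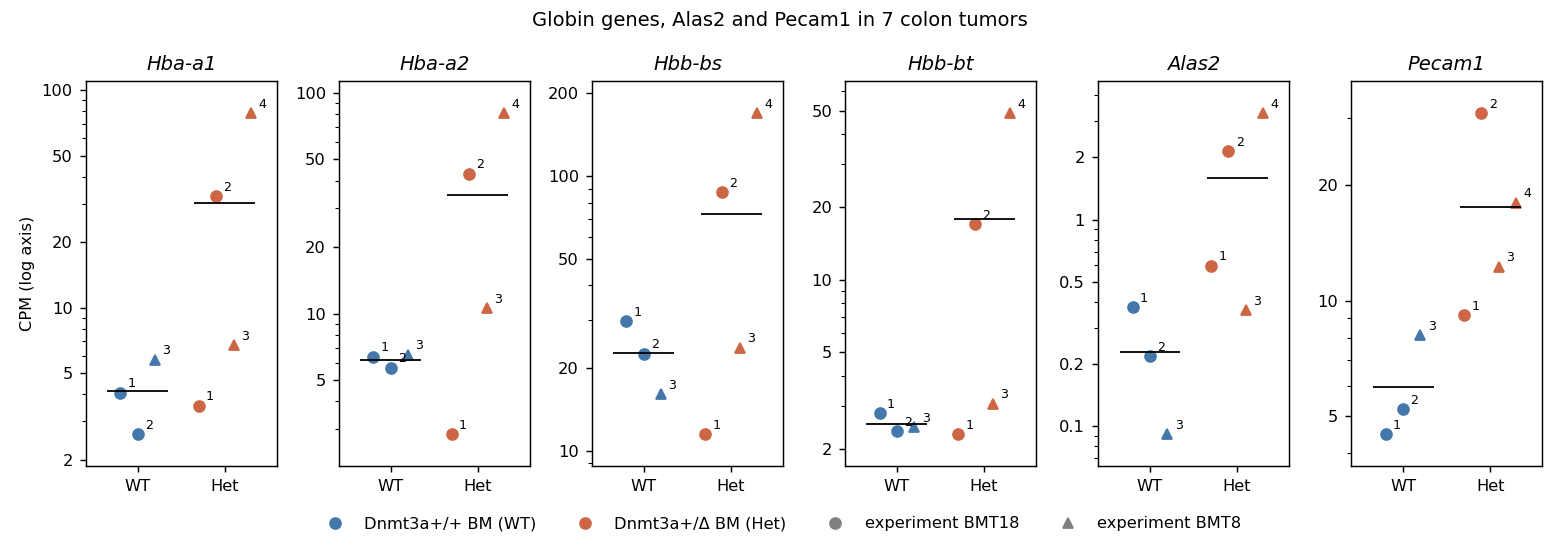
CPM of each gene in each tumor, 1 panel per gene with its own log axis; points are tumors, numbered as in the labels, with circles for experiment BMT18, triangles for BMT8 and a line at the group mean. Dnmt3a+/Δ-BM tumors 2 and 4 are the 2 highest in all 5 erythroid panels, while for Pecam1 all 4 Dnmt3a+/Δ-BM tumors are above the 3 Dnmt3a+/+-BM tumors.

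Hba-a1, an alpha chain gene, was at 4.06, 2.62 and 5.75 CPM in Dnmt3a+/+-BM tumors 1 to 3 and at 3.54, 32.5, 6.70 and 78.3 CPM in Dnmt3a+/Δ-BM tumors 1 to 4. Its level in Dnmt3a+/Δ-BM tumors 2 and 4 was 7.84 and 18.9 times the Dnmt3a+/+-BM mean, tumor 3 was just above that group and tumor 1 inside it. The log2 fold change was 2.87 (SE 1.06), with an unadjusted p of 0.0272 and an adjusted p of 0.417 by edgeR. DESeq2 gave nearly the same fold change with an adjusted p of 0.0379, the one call among the 5 genes by any fit. The exact permutation test of log2 CPM over the 35 splits of the tumors, two-sided, gave p = 0.2, where the smallest p it allows is 0.0286.

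Hba-a2, the second alpha chain gene, was at 6.37, 5.68 and 6.52 CPM with Dnmt3a+/+ BM and at 2.84, 43.1, 10.6 and 80.9 CPM with Dnmt3a+/Δ BM. The 3 Dnmt3a+/+-BM tumors were close to each other, and Dnmt3a+/Δ-BM tumors stood on both sides of them, 3 above and tumor 1 below. The log2 fold change was 2.47 (SE 1.00), with an adjusted p of 0.434 by edgeR and of 0.0812 by DESeq2, and the exact permutation p was 0.343.

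Hbb-bs, a beta chain gene, was at 29.6, 22.5 and 16.1 CPM with Dnmt3a+/+ BM and at 11.5, 87.4, 23.8 and 169.6 CPM with Dnmt3a+/Δ BM. Only tumors 2 and 4 exceeded the Dnmt3a+/+-BM tumors, tumor 3 lay among them and tumor 1 below them. The log2 fold change was 1.68 (SE 0.85), the smallest of the 5, with an adjusted p of 0.508 by edgeR and an exact permutation p of 0.371.

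Hbb-bt, the other beta chain gene, was at 2.79, 2.36 and 2.45 CPM with Dnmt3a+/+ BM and at 2.30, 17, 3.07 and 48.8 CPM with Dnmt3a+/Δ BM. The Dnmt3a+/+-BM tumors differed by less than 0.5 CPM, tumor 1 of the other group was just below them and tumor 3 just above. The log2 fold change was 2.81 (SE 1.07), with an adjusted p of 0.421 by edgeR and an exact permutation p of 0.257.

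Alas2 was scarce, with 14, 14 and 3 counts in the Dnmt3a+/+-BM tumors and 24, 105, 18 and 121 counts in the Dnmt3a+/Δ-BM tumors. These correspond to 0.376, 0.219 and 0.0918 CPM and to 0.599, 2.14, 0.366 and 3.27 CPM. It was the one gene of the 5 for which Dnmt3a+/Δ-BM tumor 1 stood above every Dnmt3a+/+-BM tumor, and tumor 3 fell marginally short of Dnmt3a+/+-BM tumor 1. The log2 fold change was 2.78 (SE 0.92), with an unadjusted p of 0.0173 and an adjusted p of 0.397 by edgeR, and the exact permutation p was 0.0857.

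By edgeR, 0 of the 5 genes were called, and 4 of the 5, all but Hbb-bs, were higher with Dnmt3a+/Δ BM at an unadjusted p under 0.05, where 5.83% of all tested genes were. The 5 log2 fold changes had a median of 2.78, beside a median of 0.0025 over all genes. The genes are not separate observations, since all 5 follow the same tumors. In none of the 5 did all Dnmt3a+/Δ-BM tumors exceed all Dnmt3a+/+-BM tumors, which 6.12% of all tested genes did, and in none were all of them below, as in 6.32% of all tested genes. DESeq2 called 1 of the 5, beside 1.47% of all genes called higher by it. Tumors 2 and 4 held 91.5, 90.2, 87.9, 92.5 and 84.9% of the summed CPM of the Dnmt3a+/Δ-BM group for Hba-a1, Hba-a2, Hbb-bs, Hbb-bt and Alas2.

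Leaving out Dnmt3a+/Δ-BM tumor 4 moved the fold changes most. Without it, the log2 fold change of Hba-a1 was 1.79, of Hba-a2 1.61, of Hbb-bs 0.85, of Hbb-bt 1.56 and of Alas2 2.16. Leaving out Dnmt3a+/Δ-BM tumor 1 gave the highest values for the 4 globins, up to 3.25 for Hba-a1, and leaving out Dnmt3a+/+-BM tumor 1 the highest for Alas2, 3.29. Without any 1 tumor, every fold change stayed above 0 and none of the 5 genes was called. The number of the 5 that were higher at an unadjusted p under 0.05 was 4 with all tumors. It was 0 without Dnmt3a+/+-BM tumor 2 or 3, 1 (Alas2) without Dnmt3a+/+-BM tumor 1 or Dnmt3a+/Δ-BM tumor 4, 3 without Dnmt3a+/Δ-BM tumor 2, 4 without tumor 3 and 5 without tumor 1.

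**Figure D2:**
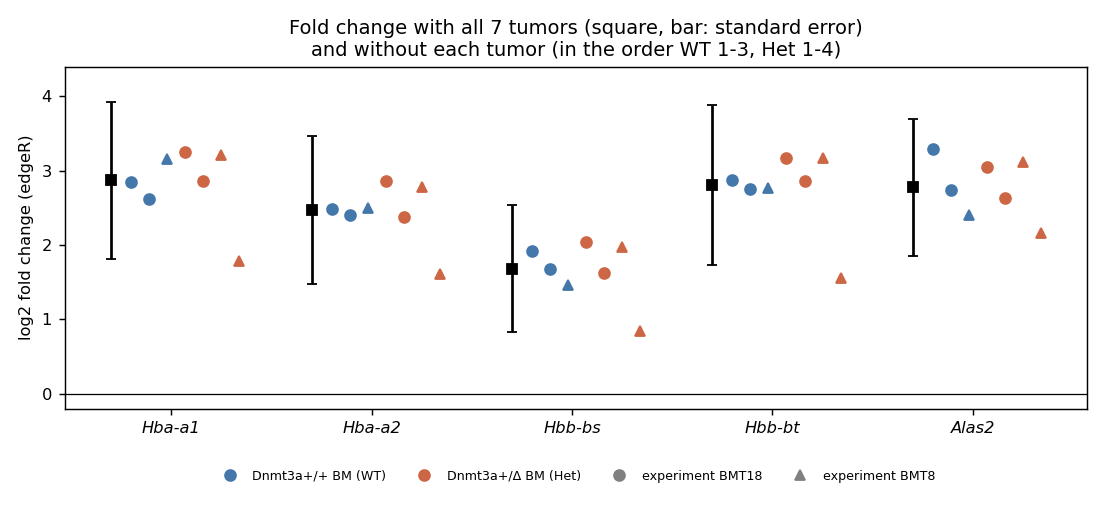
Log2 fold change by edgeR (y axis) for each gene, with all 7 tumors (square, bar the standard error) and with each tumor left out (coloured symbols, in the order Dnmt3a+/+-BM 1 to 3, then Dnmt3a+/Δ-BM 1 to 4). The rightmost triangle, without Dnmt3a+/Δ-BM tumor 4, is the lowest for all 5 genes, at 0.85 for Hbb-bs and 2.16 for Alas2.

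Both experiments held 1 tumor with high globin levels, Dnmt3a+/Δ-BM tumor 2 in BMT18 and tumor 4 in BMT8. The log2 ratio of the group means was 2.43 in BMT18 and 2.89 in BMT8 for Hba-a1, 1.93 and 2.81 for Hba-a2, 0.92 and 2.59 for Hbb-bs, 1.90 and 3.40 for Hbb-bt, and 2.20 and 4.31 for Alas2. All 5 were above 0 in each experiment. Tested within BMT18 alone (n = 2 and 2), the unadjusted p by edgeR was 0.0612 for Alas2 to 0.389 for Hbb-bs, and BMT8, with 1 Dnmt3a+/+-BM tumor, was not tested separately. The edgeR fit with experiment as a covariate gave log2 fold changes of 2.61, 2.27, 1.53, 2.46 and 2.85 in the same order of genes. In that fit 2 of the 5, Hba-a1 and Alas2, had an unadjusted p under 0.05, with Hba-a2 at 0.0712 and Hbb-bt at 0.0681 by edgeR.

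The levels of the 5 genes can be compared with each other only per length. As CPM per kilobase of the first listed transcript, the order was Hbb-bs, Hba-a2, Hba-a1, Hbb-bt and Alas2 in 7 of 7 tumors. In Dnmt3a+/Δ-BM tumor 1, Hba-a2 and Hba-a1 were nearly equal, at 5.13 and 5.07 CPM per kilobase. Their order there depends on the transcript length taken and on the estimated division of reads within the pair. On the log2 scale of CPM per kilobase, Hbb-bs exceeded Hba-a2 by 1.36 ± 0.51 (SD, n = 7), Hba-a2 exceeded Hba-a1 by 0.73 ± 0.47, Hba-a1 exceeded Hbb-bt by 0.77 ± 0.37, and Hbb-bt exceeded Alas2 by 4.81 ± 0.88. Each step was thus larger than its spread over tumors. In the median tumor, Hbb-bs was at 37.8 CPM per kilobase and Alas2 at 0.185.

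The make-up of the globin counts was not the same in every tumor. The ratio of alpha to beta counts was 0.321, 0.334 and 0.663 in the Dnmt3a+/+-BM tumors and 0.463, 0.724, 0.643 and 0.729 in the Dnmt3a+/Δ-BM tumors. Dnmt3a+/+-BM tumors 1 and 2 had the lowest ratios, and tumor 3 was among the high ones, so the groups overlapped. Per length the ratios were 0.338, 0.357 and 0.688, and 0.473, 0.760, 0.679 and 0.760. Alpha chains made up 24.3% of the globin counts in Dnmt3a+/+-BM tumor 1 (exact 95% interval 22.2 to 26.5%) and 42.2% in Dnmt3a+/Δ-BM tumor 4 (41.4 to 43.0%), a gap beyond counting error.

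Within the beta pair, Hbb-bs made up 91.4, 90.5 and 86.8% of the counts in the Dnmt3a+/+-BM tumors and 83.4, 83.7, 88.6 and 77.7% in the Dnmt3a+/Δ-BM tumors. Dnmt3a+/Δ-BM tumor 4 had the lowest share, with an exact 95% interval of 76.7 to 78.6% that overlapped that of no other tumor, and tumor 3 lay between Dnmt3a+/+-BM tumors 2 and 3. Within the alpha pair, Hba-a1 made up 38.9, 31.6 and 46.9% and 55.5, 43.0, 38.8 and 49.2%. The share was highest in Dnmt3a+/Δ-BM tumor 1, where its exact 95% interval, 49.2 to 61.7%, includes equal counts of the pair. The intervals within the beta and alpha pairs treat estimated counts as observed and leave out the error of dividing reads within a pair. They are therefore too narrow to settle differences between tumors in these shares. Alas2 gave 8.78, 6.59 and 2.98 counts per 1000 globin counts in the Dnmt3a+/+-BM tumors and 29.7, 11.9, 8.29 and 8.66 in the Dnmt3a+/Δ-BM tumors. The value of Dnmt3a+/Δ-BM tumor 1, with the least globin, stood apart from the other 6, its exact 95% interval being 19.1 to 43.8.

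**Figure D3:**
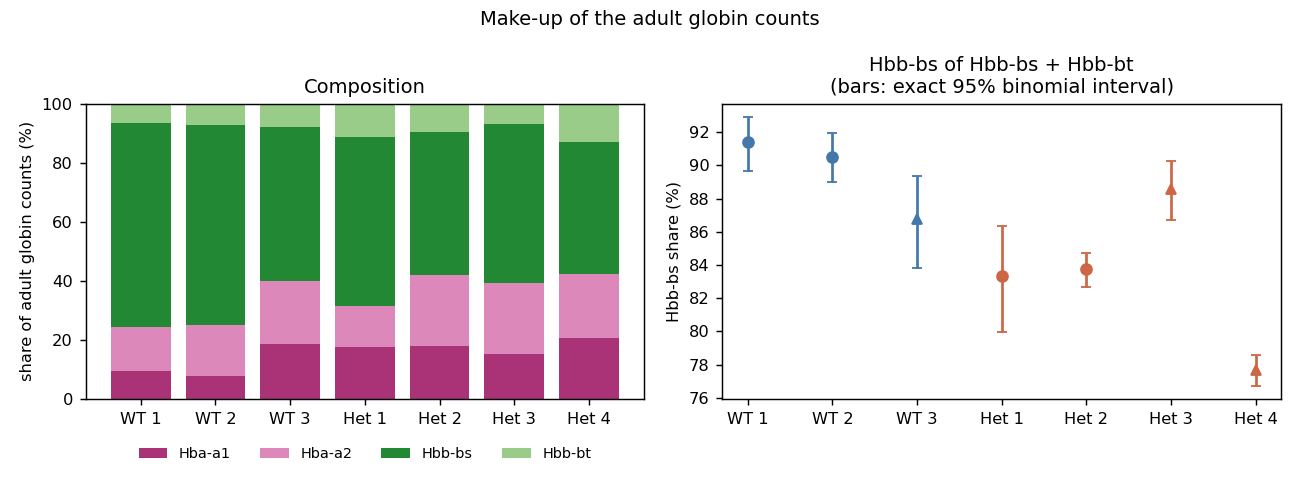
Left, the share of each adult globin gene in the summed counts of the 4 genes, per tumor, stacked to 100%; right, the share of Hbb-bs in the beta globin counts with its exact 95% binomial interval (the axis does not start at 0; circles BMT18, triangles BMT8, blue Dnmt3a+/+ BM, orange Dnmt3a+/Δ BM). The alpha share is lowest in Dnmt3a+/+-BM tumors 1 and 2, and the Hbb-bs share is lowest in Dnmt3a+/Δ-BM tumor 4, at 77.7%.

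Across the 7 tumors the 5 genes varied together, with Pearson r of log2 CPM from 0.808 (Hba-a2 and Alas2) to 0.979 (Hba-a1 and Hbb-bt). These values describe 7 points that have libraries in common, and the globin pairs also have reads in common. Hba-a1 and Hba-a2 had r = 0.967, and Hbb-bs and Hbb-bt 0.963.

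Endothelial Pecam1 was at 4.49, 5.21 and 8.14 CPM in the Dnmt3a+/+-BM tumors and at 9.16, 30.8, 12.2 and 18.0 CPM in the Dnmt3a+/Δ-BM tumors. In contrast to the erythroid genes, all 4 Dnmt3a+/Δ-BM tumors were above all Dnmt3a+/+-BM tumors. The log2 fold change was 1.56 (SE 0.46, unadjusted p = 0.00989, adjusted p = 0.377 by edgeR, 0.0341 by DESeq2), and the exact permutation p was 0.0571.

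In each experiment the tumor with the most Pecam1 was also the one with the most globin, but the amounts did not run in parallel. Dnmt3a+/Δ-BM tumor 2 had the most Pecam1, and tumor 4, with 0.583 times its Pecam1, had 2.41 times its Hba-a1 and 1.53 times its Alas2. Globin counts per Pecam1 count were 9.55, 6.37 and 3.78 in the Dnmt3a+/+-BM tumors and 2.20, 5.84, 3.60 and 21 in the Dnmt3a+/Δ-BM tumors. Tumor 4 stood above and Dnmt3a+/Δ-BM tumor 1 below all others, so per unit of Pecam1 the groups overlapped. Dnmt3a+/Δ-BM tumors 1 and 3 had more Pecam1 than every Dnmt3a+/+-BM tumor and yet less Hbb-bs than Dnmt3a+/+-BM tumor 1.

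Pearson r between log2 CPM of the gene and of Pecam1 over the 7 tumors was 0.828 for Hba-a1, 0.774 for Hba-a2, 0.657 for Hbb-bs, 0.760 for Hbb-bt and 0.757 for Alas2. The exact two-sided permutation p, adjusted over these 5 relations, was 0.0613 for 4 of the genes and 0.109 for Hbb-bs (unadjusted 0.0214, 0.0423, 0.109, 0.0419 and 0.0490), so none passed 0.05. Spearman's rho was 0.786, 0.714, 0.464, 0.643 and 0.643, with exact adjusted p from 0.174 to 0.302. Of all tested genes, 6.96% had an r with Pecam1 at least as high as Hba-a1, 10.0% as Hba-a2, 16.2% as Hbb-bs, 10.8% as Hbb-bt and 11.0% as Alas2. The erythroid levels fall into 2 high tumors and 5 low ones, and among those 5 low ones r was lower for every gene. This split was added after seeing the data. It leaves out the 2 tumors highest in all 5 genes and so narrows the range, which by itself can lower r. It therefore cannot decide whether a relation is absent. Without the 2 tumors farthest from the median Pecam1 on the CPM scale, which are Dnmt3a+/Δ-BM tumors 2 and 4, r of log2 CPM was 0.66, 0.16, −0.47, 0.24 and 0.13. With n = 5, the exact permutation p was 0.233 for Hba-a1, and adjusted over the 5 genes it was 0.867 for each. No relation was thus shown among these tumors, for Hba-a1 or the others. Measured on the log scale, the farthest are Dnmt3a+/Δ-BM tumor 2 and Dnmt3a+/+-BM tumor 1, and without them r was 0.869, 0.768, 0.699, 0.785 and 0.780 (n = 5, exact permutation p adjusted over the 5 genes from 0.146 to 0.192). Centred within experiment, r was 0.822, 0.760, 0.642, 0.745 and 0.790 (exact permutation p adjusted over the 5 genes from 0.0694 to 0.118). Centred within graft group it was 0.741, 0.742, 0.615, 0.645 and 0.422 (adjusted p from 0.399 to 0.486 by the same test), so none passed 0.05. A value within 1 experiment was not computed, since each holds 4 or 3 tumors.

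**Figure D4:**
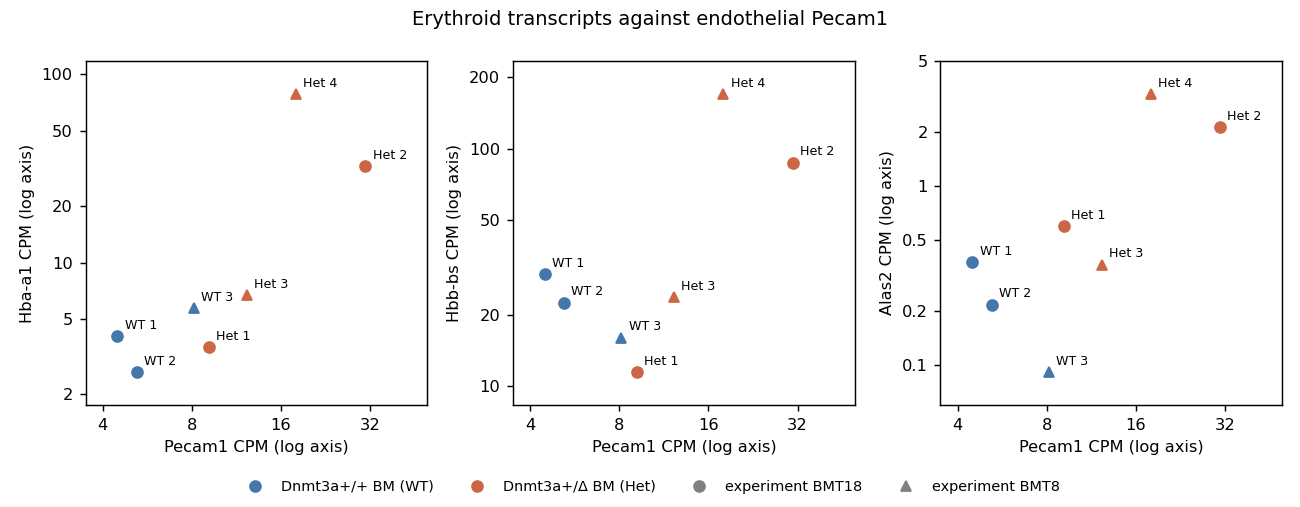
CPM of Hba-a1, Hbb-bs and Alas2 (y axes, log scale) against Pecam1 CPM (x axis, log scale), 1 point per tumor. Dnmt3a+/Δ-BM tumors 2 and 4 are at the upper right of each panel, tumor 4 with the higher erythroid level and tumor 2 with the higher Pecam1 (30.8 against 18.0 CPM). Among the other 5 tumors, a split added after seeing the data, r of log2 CPM with Pecam1 is 0.66 for Hba-a1, −0.47 for Hbb-bs and 0.13 for Alas2.

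The mean of 18 endothelial marker genes, Pecam1 among them, in place of Pecam1 alone gave r of 0.857, 0.793, 0.675, 0.774 and 0.742. The exact permutation p, adjusted over the 5 genes, was 0.0625 to 0.0976. The list itself had fold changes above 0 for 18 of 18 genes, with a median log2 of 1.67 and 11 at an unadjusted p under 0.05, of which DESeq2 called 5, and its summed level was 45.3 to 128 CPM in the Dnmt3a+/+-BM tumors and 98.2 to 390 CPM in the Dnmt3a+/Δ-BM tumors. Cdh5, the cadherin of endothelial junctions, was at 1.97 to 4.89 CPM and at 5.02, 49.4, 6.38 and 13.0 CPM. Its order among the Dnmt3a+/Δ-BM tumors differed from that of the globins, with tumor 2 rather than tumor 4 the highest.

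Red cell genes other than the globins and Alas2 were tested as lists, each described beside all tested genes, of which 5.83% were higher and 5.20% lower at an unadjusted p under 0.05. Of 25 genes for the red cell membrane and its enzymes, 24 were in the table and 13 had enough counts to be tested, with 1 higher, 0 lower and a median log2 fold change of −0.080. The 1 higher gene, Sptb, for the beta chain of spectrin and also expressed outside red cells, was at 5.21, 2.65 and 2.05 CPM with Dnmt3a+/+ BM and at 6.81, 21.5, 11.8 and 7.11 CPM with Dnmt3a+/Δ BM (log2 fold change 1.84, SE 0.54, adjusted p = 0.377 by edgeR, 0.0244 by DESeq2). All 4 Dnmt3a+/Δ-BM tumors were above the others, but tumor 4, with the most globin, was only the third highest.

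The defining red cell membrane genes were nearly silent. Slc4a1, for the anion exchanger band 3 and named after its values were seen, had 0, 5 and 0 counts in the Dnmt3a+/+-BM tumors and 1, 6, 0 and 11 counts in the Dnmt3a+/Δ-BM tumors. Together the 11 untested genes of the list had 20, 46 and 25 counts, and 18, 54, 20 and 37 counts. Scaled to library size, these sums were 0.537, 0.718 and 0.765 CPM with Dnmt3a+/+ BM and 0.449, 1.10, 0.406 and 1.00 CPM with Dnmt3a+/Δ BM. In this sum Dnmt3a+/Δ-BM tumors 2 and 4 were the 2 highest, and tumors 1 and 3 were below all Dnmt3a+/+-BM tumors. Of the 37 counts of tumor 4, 11 were of Slc4a1. No gene of the sum had more than 15 counts in a tumor, and the order was not common to all of them. Hemgn, also named after its values were seen, had 3, 3 and 2 counts and 1, 1, 0 and 0 counts. The most abundant genes of the list, Car1 and Car2 (carbonic anhydrases that colon epithelium also expresses) and Tfrc (the transferrin receptor of dividing cells), had log2 fold changes of −0.71, −0.73 and −0.24, none called.

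The other genes of the heme synthesis list had log2 fold changes on both sides of 0, between −0.62 and 0.57. Of 13 genes tested with Alas2 included, Alas2 was the 1 that was higher at an unadjusted p under 0.05, 2 were lower and the median log2 fold change was −0.11. Alas1, the synthase of cells other than red cell precursors, was at 126, 126 and 214 CPM with Dnmt3a+/+ BM and at 114, 114, 95.8 and 97.3 CPM with Dnmt3a+/Δ BM. All 4 Dnmt3a+/Δ-BM tumors were below the others (log2 fold change −0.56, SE 0.22, unadjusted p = 0.0345, adjusted p = 0.426 by edgeR). Abcb6, a porphyrin transporter, was at 31.5, 33.4 and 40.7 CPM and at 22.4, 21.2, 22.3 and 25.6 CPM (log2 fold change −0.62, SE 0.15, unadjusted p = 0.00408, adjusted p = 0.361). Alad and Urod, for later steps of the pathway, had log2 fold changes of −0.24 and 0.13. Slc25a37, the mitochondrial iron importer mitoferrin-1 of red cell precursors, named after its values were seen, had the highest after Alas2, at 0.57 (SE 0.34).

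**Figure D5:**
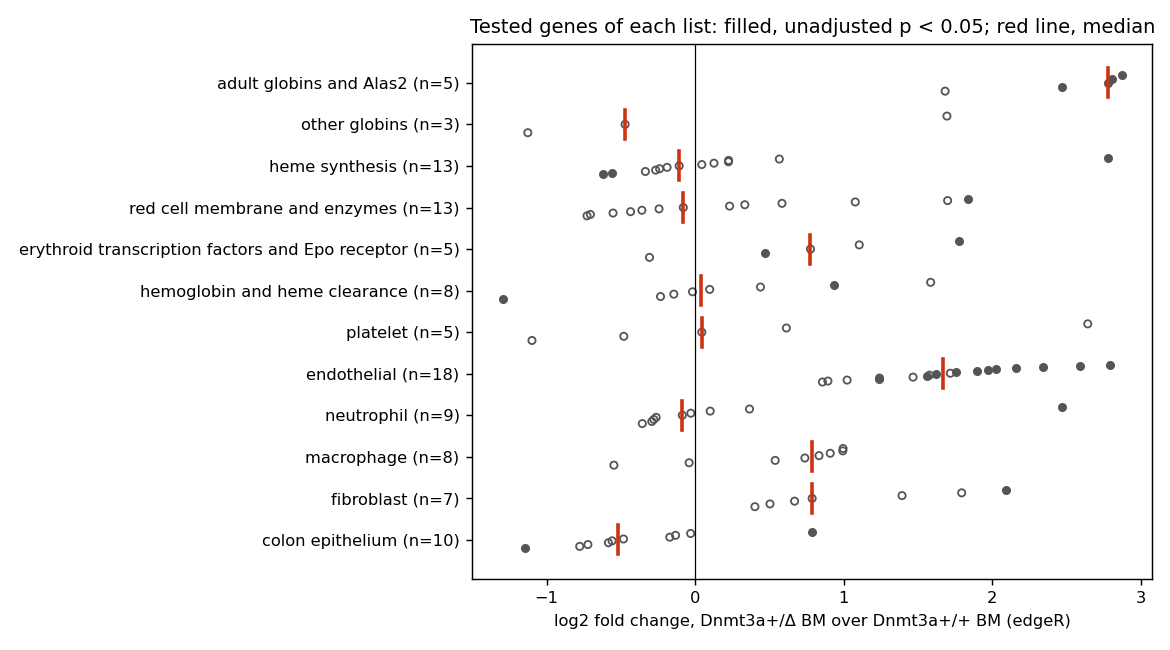
Log2 fold change by edgeR (x axis, Dnmt3a+/Δ BM over Dnmt3a+/+ BM) of each tested gene of 12 lists; filled points have an unadjusted p under 0.05 and the red line is the median of the list (n, genes tested; Alas2 stands in 2 lists). The adult globins and Alas2 are at the far right with a median of 2.78, the endothelial list follows at 1.67, and heme synthesis and red cell membrane genes are centred near 0, at −0.11 and −0.080.

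Of 9 erythroid transcription factors and the erythropoietin receptor, 5 were tested, with 2 higher, 0 lower and a median log2 fold change of 0.78. Tal1, a factor of blood and endothelial cells, had 2, 7 and 7 counts with Dnmt3a+/+ BM and 13, 35, 24 and 7 counts with Dnmt3a+/Δ BM (log2 fold change 1.78, SE 0.68, adjusted p = 0.420 by edgeR), and Dnmt3a+/Δ-BM tumor 4 was not among its high tumors. Bcl11a, a repressor of embryonic globin genes that B cells and neurons also express, was at 8.82 to 11.7 CPM and at 13.0 to 16.1 CPM (log2 fold change 0.47, SE 0.20, adjusted p = 0.445). Lmo2, a partner of Tal1, was at 6.04 to 16.2 CPM and at 11.8, 7.95, 41.7 and 32.6 CPM (log2 fold change 1.11, SE 0.63). The factors that define the lineage were too low to be tested, Gata1 with 0, 2 and 0 counts and 0, 9, 0 and 0 counts, and Klf1 with 9, 20 and 12 counts and 2, 10, 7 and 4 counts. Scaled to library size, Klf1 was at 0.242, 0.312 and 0.367 CPM with Dnmt3a+/+ BM and at 0.0499, 0.204, 0.142 and 0.108 CPM with Dnmt3a+/Δ BM. All 4 Dnmt3a+/Δ-BM tumors were below the others, the opposite order of groups from the globin means, at counts too low for the test.

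Embryonic globins were at or next to 0. Hbb-y and Hba-x, which encode embryonic beta-like and alpha-like chains, were at 0 counts in all 7 tumors, which allows up to 3 counts in each, and Hbb-bh1 had 1 count in 1 tumor. Hbq1a, an alpha-like gene expressed in red cells, had 4 counts in Dnmt3a+/Δ-BM tumor 4 and 0 elsewhere. No embryonic globin had enough counts to be tested. The 3 tested genes of the list were Mb, Ngb and Cygb, which encode globins of cells other than red cells, and none passed an unadjusted p of 0.05. Cygb, the cytoglobin of fibroblast-like cells, was at 0.489 to 1.75 CPM and at 1.2, 6.85, 2.15 and 2.08 CPM, highest in tumor 2.

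Genes that clear free hemoglobin and heme gave 1 higher, 1 lower and a median log2 fold change of 0.040 among 8 tested. Hmox1, the heme oxygenase that opens the heme ring, was at 11.3, 9.13 and 17.5 CPM with Dnmt3a+/+ BM and at 17.6, 40.5, 17 and 21.5 CPM with Dnmt3a+/Δ BM (log2 fold change 0.94, SE 0.38, unadjusted p = 0.0411, adjusted p = 0.435 by edgeR). Its 2 highest tumors were the same as for globin, in the reverse order. Slc40a1, the iron exporter ferroportin, was at 176, 178 and 49.5 CPM and at 62.1, 41.7, 69.4 and 46.1 CPM (log2 fold change −1.29, SE 0.42, adjusted p = 0.392), with Dnmt3a+/+-BM tumor 3 inside the range of the other group. The ferritin genes Fth1 and Ftl1 had log2 fold changes of −0.23 and −0.018, and Hp, which encodes the hemoglobin-binding haptoglobin, was at 102 CPM in Dnmt3a+/Δ-BM tumor 2 and at 4.33 to 14.9 CPM in the other 6.

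Other blood-borne cells were checked by their markers, since blood brings platelets and leukocytes with red cells. Of 12 platelet genes, 5 were tested and none passed an unadjusted p of 0.05. Pf4, platelet factor 4, was at 2.02, 2.17 and 4.53 CPM with Dnmt3a+/+ BM and at 2.97, 6.64, 3.66 and 4.49 CPM with Dnmt3a+/Δ BM, so tumor 4 was within the range of the Dnmt3a+/+-BM tumors. Clec1b, for the platelet receptor CLEC-2, had the lowest p of the list, with 1, 0 and 4 counts and 2, 11, 28 and 11 counts (log2 fold change 2.64, SE 1.18, unadjusted p = 0.0573 by edgeR). Of the untested genes, chosen after their values were seen, Tubb1 had 0 counts in the Dnmt3a+/+-BM tumors and 0, 5, 4 and 2 counts in the Dnmt3a+/Δ-BM tumors, and Gp5 had 0, 1 and 0 and 1, 5, 3 and 2 counts. In these 3 genes Dnmt3a+/Δ-BM tumors 2 to 4 were above all Dnmt3a+/+-BM tumors, at low counts, but the list as a whole did not share this order. Of its 5 tested genes, 3 had log2 fold changes above 0 and 2 below, with a median of 0.045. Gp1bb had a log2 fold change of −0.48 (SE 0.53). The untested Gp6, also chosen after its values were seen, had 2, 7 and 0 counts and 0, 1, 1 and 0 counts. Ppbp dominated the summed platelet list, at 2224 CPM in Dnmt3a+/+-BM tumor 1 and 4.01 CPM in Dnmt3a+/Δ-BM tumor 2, whereas Gp9, a platelet-defining receptor chain, had at most 4 counts in any tumor. The 9 tested neutrophil genes gave 1 higher, Mmp9 (log2 fold change 2.47, SE 0.86, adjusted p = 0.406 by edgeR, 0.0409 by DESeq2), and a median of −0.087, with a summed level of 1703 to 7686 CPM and of 389 to 8478 CPM that was mostly Ltf. Camp, a defining granule gene, had 1 count in all tumors together.

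Among the tissue lists, 0 of 8 macrophage genes and 1 of 7 fibroblast genes were higher at an unadjusted p under 0.05, both with a median log2 fold change of 0.79, and colon epithelium gave 1 higher and 1 lower of 10 with a median of −0.52. Without Dnmt3a+/Δ-BM tumor 2 the macrophage median was 0.078 and the fibroblast median 0.23, and without Dnmt3a+/+-BM tumor 3 the epithelial median was −0.28. The summed epithelial level was 15560 to 31540 CPM in the Dnmt3a+/+-BM tumors and 9568 to 20060 CPM in the Dnmt3a+/Δ-BM tumors, and the fibroblast level 154 to 304 CPM and 234 to 1008 CPM. DESeq2 called 1 epithelial gene, Cdx1, a transcription factor of gut epithelium (log2 fold change −1.15 by edgeR, adjusted p = 0.361, 0.0226 by DESeq2). Dnmt3a+/Δ-BM tumor 2 had the least epithelial and the most fibroblast signal, while tumor 4, with the most globin, was at 20060 and 360 CPM. The part of these differences in make-up in the globin values was not tested.

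Among 13521 genes with a mean of at least 1 CPM, the 6 whose log2 CPM over the 7 tumors was most like that of Hbb-bs were Ticam2 (r = 0.958), Gm4631 (0.951), Hsbp1l1 (0.948), Gpihbp1 (0.943), Zfp329 (0.942) and Paip1 (0.940). Of these, Gpihbp1, the capillary anchor of lipoprotein lipase, was at 0.940, 0.640 and 0.857 CPM with Dnmt3a+/+ BM and at 0.299, 3.99, 1.26 and 4.24 CPM with Dnmt3a+/Δ BM. Its low tumor 1 and high tumors 2 and 4 follow from its being picked for likeness to Hbb-bs. The 6 most like Alas2 were Fam199x (0.979), Ddhd1 (0.975), Fabp4 (0.971), Rab11fip5 (0.956), Tex9 (0.946) and Dtwd2 (0.945). Fabp4, a fatty acid carrier of adipocytes and capillary endothelium, was at 2.42, 2.22 and 1.16 CPM and at 3.17, 9.31, 3.35 and 8.11 CPM. These names are a description over 7 tumors, chosen from many genes. Gpihbp1 and Fabp4 are 1 gene of each 6, and a link of these genes to vessels was not tested.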

How the data were processed

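Whole-tumor RNA was poly(A)-selected and sequenced by the authors. Per the labels and the study's methods, reads were trimmed with Trimmomatic, aligned with STAR to mm10 and counted with RSEM; the annotation release is not given in the sources used here. The authors deposited expected counts (estimated counts) per gene, not normalized, which were rounded to whole numbers. Of 43346 genes, 18994 were at 0 in all tumors. Tumors were grouped by graft from the labels, and p-values measure the spread between these tumors. The main fit was edgeR 4.0.16 (R 4.3.3): TMM, filterByExpr, quasi-likelihood test, Benjamini-Hochberg over 15810 genes, no covariate. CPM used TMM library sizes, and log2 CPM a prior count of 2. DESeq2 1.42.0, other scalings, filters, covariates and left-out tumors were alternatives. The tests were checked on simulated data. Exact permutation tests and Clopper-Pearson intervals used scipy 1.17.1. Genes were named by fixed lists, at most 6 per list by highest mean CPM or lowest p, exceptions being stated. The members and lists were chosen with earlier results of these data known. No 2 libraries agreed within sampling noise. The values of 1 listed red cell gene are not reported here.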

Additional observations from a re-analysis of the deposited data

Results flagged for a closer look

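Among 66 values examined in the 4 Dnmt3a+/Δ-BM tumors, 6 had 1 tumor whose gap to its nearest neighbour, divided by the range, exceeded 0.829; about 3.3 would be passed by chance, since about 1 group in 20 is. The first was Alas2 per 1000 globin counts, 29.7 in Dnmt3a+/Δ-BM tumor 1 against 8.29 to 11.9 in the other 3. Dnmt3a+/Δ-BM tumor 2 stood alone for Fth1 at 1692 CPM, for Hp at 102 CPM, for Mmp9 at 52.9 CPM and for Cygb at 6.85 CPM. Mb, the myoglobin gene, was at 7.54 CPM in Dnmt3a+/Δ-BM tumor 1 and at no more than 0.216 CPM in the other 3. No single-gene level of the 4 adult globins or of Alas2 stood out by this rule, because their 2 high tumors are 2 and 4.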

How the results depend on the processing

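The fold changes of the 5 genes stayed above 0 under every alternative run, and 0 genes were called by every edgeR fit. DESeq2 called 300 genes, among them Hba-a1 (log2 fold change 2.87, adjusted p = 0.0379; 0.0379 to 0.604 over the alternatives that left out no single tumor). With each tumor left out, 883 (without Dnmt3a+/+-BM tumor 2) to 2143 genes (without Dnmt3a+/Δ-BM tumor 1) had an unadjusted p under 0.05, 1114 without Dnmt3a+/Δ-BM tumor 2, beside 1744 with all. Scaling by library size alone moved the median log2 fold change of all genes to 0.21. It gave an r with Pecam1 of 0.828 for Hba-a1, 0.787 for Hba-a2, 0.770 for Hbb-bt and 0.789 for Alas2 (adjusted p 0.0476 for each by the exact permutation test). For Hbb-bs it gave 0.694 (adjusted p 0.0885 by the same test), and the cause was not tested. With CPM in place of log2 CPM, r was lower than in the main setting for all 5 genes. It was 0.591 for Hba-a1, 0.668 for Hba-a2, 0.617 for Hbb-bs, 0.532 for Hbb-bt and 0.734 for Alas2 (adjusted p 0.161 for each by the exact permutation test). Without the 2 tumors farthest from the median Pecam1 on the CPM scale, an alternative added after seeing the data, r for Hbb-bs was −0.47. Hba-a1 against Hbb-bs alone gave an alpha to beta ratio of 0.356 (Dnmt3a+/Δ BM) and 0.204 (Dnmt3a+/+ BM), beside 0.640 and 0.439 with both pairs, since other genes enter the ratio. Same-numbered tumors did not deviate together in every pair (r = 0.568, 0.071 and −0.038; only Dnmt3a+/+-BM tumor 1 correlated best with its own number), so the numbers were not taken as pairing. The fit with the replicate block, in which Dnmt3a+/Δ-BM tumor 4 has no partner, called 0 genes, with 1885 at an unadjusted p under 0.05, and gave log2 fold changes of 1.11, 0.82, 0.41, 0.93 and 1.99 for Hba-a1, Hba-a2, Hbb-bs, Hbb-bt and Alas2. Of the list medians, heme synthesis moved to 0.11 by library size alone and 0.057 with BMT18 alone, and over the left-out tumors red cell membrane genes ranged from −0.28 (without Dnmt3a+/Δ-BM tumor 3) to 0.28 (without Dnmt3a+/+-BM tumor 1), erythroid factors from 0.36 (without Dnmt3a+/Δ-BM tumor 2) to 0.91, and macrophage genes from 0.078 (without Dnmt3a+/Δ-BM tumor 2) to 1.04, fibroblast genes from 0.23 (without Dnmt3a+/Δ-BM tumor 2) to 1.05 and epithelial genes from −0.60 to −0.28 (without Dnmt3a+/+-BM tumor 3). Medians of the other globins (−1.04 to 0.39), heme synthesis (−0.15 to 0.032), clearance (−0.076 to 0.25), platelet (−0.44 to 0.41) and neutrophil genes (−0.31 to 0.033) took both signs. Counts limit Alas2, at 3 to 121 per tumor.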
